A study of Mus musculus with 13 samples.

Results

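The genes Atf4, Ddit3, Trib3, Chac1, Asns, Psat1, Phgdh, Mthfd2, Pycr1 and Gdf15, which belong to the integrated stress response and to serine and proline synthesis, were followed in mouse mammary glands and HER2/Neu mammary tumors. They were chosen by symbol, as ATF4 and genes regarded as its targets, and all 10 were found among the 24421 genes of the count table. All 10 also passed the filter on low counts. The samples came from MMTV-HER2/neu transgenic mice (line 202Mul, FVB/N background), in which the MMTV promoter drives rat HER2/Neu in the mammary epithelium. The glands are given under the same strain, but the genotype label of every sample reads wild type. The labels do not say whether the glands came from tumor-bearing or lactating mice. The 13 libraries were 2 mammary glands from untreated mice, 3 primary tumors from untreated mice, 3 primary tumors from mice given stavudine (STV), 3 recurrent tumors that regrew after 17-DMAG, and 2 recurrent tumors after 17-DMAG with STV. STV, a nucleoside inhibitor of reverse transcriptase, was supplied at 1 mg/mL in drinking water, and 17-DMAG, an inhibitor of the chaperone HSP90, was injected at 20 mg/kg. The study's methods state that 17-DMAG was continued until the regrown tumors reached their end point size. All recurrent tumors had therefore been exposed to 17-DMAG, also during regrowth, and no primary tumor had. Recurrence and 17-DMAG exposure thus cannot be told apart. The methods also describe STV started either in young mice or only after primary tumors had appeared. The sample titles do not say which start applied to the recurrent DMAG+STV tumors. Start and duration of STV may therefore differ between the primary STV and the recurrent DMAG+STV tumors. Each tumor library was treated as an individual tumor, and the labels do not tie the replicate numbers to mice. The study's methods describe female mice that entered the experiments as young adults, and the labels do not give the age at which each tissue was collected.

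In the integrated stress response, kinases that sense amino acid shortage, unfolded protein, double-stranded RNA or lack of heme phosphorylate the translation factor eIF2. Most protein synthesis then slows, while the ATF4 mRNA is translated better, so that much of the control of ATF4 lies beyond the mRNA level measured here. ATF4 pairs with C/EBP family proteins and activates genes for amino acid synthesis and import and for the later, death-promoting arm of the response. Serine and proline synthesis are 2 such branches and are known to be active in many breast cancers.

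The sequence that ATF4 and C/EBP proteins bind together was searched as TGATGNAA, on both strands, in the 250 bases before the RefSeq start of each gene. It was present in 3 of 10 promoters, those of Chac1, Asns and Pycr1, and in 3.91% of 27025 promoters of the same table. A match is a description of the letters and not a test of binding. The 3 windows below are given on the strand of the gene, 5′ to 3′, from the RefSeq table of build GRCm38.p6. Capitals mark the match, and they are shown because Asns and Pycr1 carry main results of the comparisons that follow.
Chac1, chr2:119351038-119351067, plus strand, match 193 bases before the start: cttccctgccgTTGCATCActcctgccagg
Asns, chr6:7693214-7693243, minus strand, match 23 bases before the start: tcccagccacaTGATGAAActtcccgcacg
Pycr1, chr11:120643833-120643862, minus strand, match 103 bases before the start: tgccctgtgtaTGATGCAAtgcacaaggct
The other 7 promoters, Psat1 among them, did not hold these letters in this window.

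Depth was 39921388 to 56887708 counts per library. The libraries differed in tissue content. The 8 milk protein genes took 37.7% of all counts in gland replicate 2, 3.16% in gland replicate 1 and 0.490% to 2.47% in the tumors, and the TMM scaling factor of gland replicate 2 was 0.493 against 1.12 for gland replicate 1. All 8 luminal epithelial markers were detected in every library. Recurrent DMAG replicate 1 stood apart with a summed level of 5755 CPM (counts scaled to the TMM-adjusted library size) for 8 fibroblast markers, against 357 to 977 CPM in the other recurrent DMAG tumors, 427 to 947 CPM in the untreated primary tumors, 281 to 683 CPM in the primary STV tumors and 1438 to 1909 CPM in the recurrent DMAG+STV tumors. Recurrent DMAG+STV replicate 2 had the lowest luminal sum, 1524 CPM, and 1527 CPM for 8 skeletal muscle markers. The muscle sum varied widely elsewhere too, with 2.30 to 995 CPM in the untreated primary tumors, 6.49 to 152 CPM in the primary STV tumors, 5.23 to 433 CPM in the recurrent DMAG tumors, 19.8 CPM in recurrent DMAG+STV replicate 1, and 8.87 and 1664 CPM in the glands. No fibroblast marker was at 0 in these libraries. In bulk tissue, fewer cells of a type and less RNA per cell cannot be told apart.

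Per kilobase of exon, the 10 genes spanned a wide range in the 11 tumors. Atf4 had the highest mean level, 39.2 ± 9.62 CPM per kilobase (SD, n = 11), followed by Trib3 with 25.8 ± 11.1. Their ranges over tumors overlapped. Phgdh (10.9 ± 3.20), Psat1 (9.93 ± 7.24) and Asns (9.75 ± 2.59) followed and did not differ among themselves beyond their spread. Ddit3 (4.58 ± 0.669) and Pycr1 (4.06 ± 1.65) were close to each other, as were Mthfd2 (1.08 ± 0.354) and Chac1 (1.01 ± 0.814). Gdf15 was lowest, at 0.180 ± 0.114 CPM per kilobase, from 2 to 33 counts per tumor. On the log2 CPM scale, the SD over tumors was smallest for Ddit3 (0.21) and largest for Gdf15 (0.98), with a median of 0.37 over all genes tested. The SDs of Chac1 (0.81), Psat1 (0.75), Trib3 (0.67), Pycr1 (0.58), Mthfd2 (0.44) and Phgdh (0.38) also lay above that median, and those of Asns (0.35) and Atf4 (0.33) below it.

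**Figure D1:**
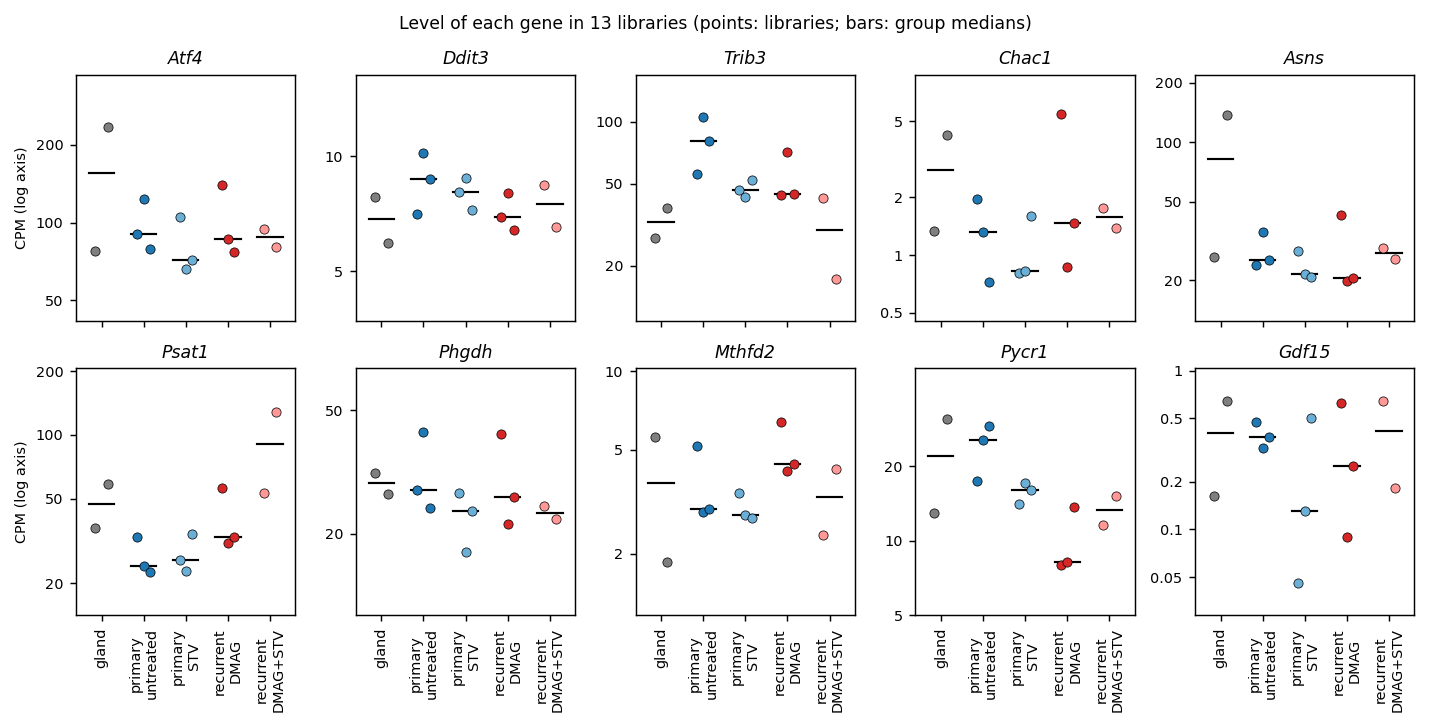
Level of each of the 10 genes in CPM (log axis) in the 13 libraries, by group, with points for libraries and bars for group medians. Psat1 is highest in recurrent DMAG+STV replicate 2 (129 CPM), Pycr1 is lower in all 3 recurrent DMAG tumors than in the untreated primary tumors, and Asns in gland replicate 2 (137 CPM) lies above every other library.

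The first question was how the tumors differed from the glands. Asns (chromosome 6, 7675165 to 7693209), the enzyme that makes asparagine, was the only one of the 10 genes called. Its level was 26.2 and 137 CPM in the 2 glands, and in the 11 tumors it had a lowest value of 19.9, a median of 25.3 and a highest of 42.9 CPM. Gland replicate 1 thus lay inside the range of the tumors, and the difference rested on the milk-rich gland replicate 2. In the quasi-likelihood test of edgeR, Asns was lower in tumors (log2 fold change -1.61, SE 0.42, adjusted p = 0.0361). Without gland replicate 2 its log2 fold change was 0.11 and its adjusted p 0.924, and without gland replicate 1 it was -2.33. The call was also lost in 9 of the 11 fits that left out a tumor, with adjusted p-values of 0.0529 to 0.0648, while over all alternatives the adjusted p ran from 0.000876 to 0.924.

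Of all genes tested, 10.4% were called between tumors and glands, 8.81% lower and 1.6% higher in tumors, so that 1 called gene of 10 was near the background. At an unadjusted p under 0.05, 2 of the 10 genes (Asns and Atf4) passed, against 29.6% of all genes, and none of the 10 had tumors and glands that did not overlap, against 11.5% of all genes. Of the other 9 genes, 6 were higher in gland replicate 2 than in gland replicate 1. Ddit3 (7.82 and 5.92 CPM in gland replicates 1 and 2), Phgdh (31.4 and 26.9 CPM) and Mthfd2 (5.58 and 1.86 CPM) were lower there. Atf4 was at 78.0 and 234 CPM in the 2 glands and at 66.3 to 140 CPM in the tumors. It was not called (log2 fold change -0.77, SE 0.34, adjusted p = 0.159 by edgeR). Pycr1 was at 12.9 and 31.0 CPM in the glands, and Chac1 at 1.33 and 4.21 CPM. Without gland replicate 1, which leaves the milk-rich gland alone on that side and assumes that it varies like the tumors, 3 genes were called, namely Asns, Atf4 (adjusted p = 0.0132) and Pycr1 (adjusted p = 0.0349), in a fit that called 4255 genes in all against 1785 with both glands. Without gland replicate 2, none was called, and 535 genes were called in all. Trib3, a pseudokinase induced late in the response, was at 27.1 and 38.0 CPM in the glands and at 17.1 to 106 CPM in the tumors (log2 fold change 0.61, SE 0.34, adjusted p = 0.256 by edgeR). Median log2 fold change was -0.24 over the 10 genes and -0.022 over all genes.

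Called genes of the further lists in the same comparison are given against the background of 10.4% of all genes called and 8.81% lower in tumors. Of 10 amino acid transporters, 2 were called, both lower in tumors. Slc1a5, a neutral amino acid transporter that carries glutamine, was at 90.5 and 63.5 CPM in the glands and at 8.58 to 18.6 CPM in the tumors, without overlap (log2 fold change -2.59, SE 0.23, adjusted p = 0.000647 by edgeR). Slc1a4, which carries alanine, serine and cysteine, was at 16.1 and 156 CPM in the glands against 4.25 to 33.0 CPM in the tumors (log2 fold change -3.21, adjusted p = 0.0116 by edgeR). Of 7 tested genes of proline metabolism other than Pycr1, 2 were called, both lower in tumors. Aldh18a1, which starts proline synthesis from glutamate, was at 64.6 and 356 CPM in the glands and at 51.1 to 75.7 CPM in the tumors. Prodh, which breaks proline down, was at 15.1 and 11.6 CPM in the glands and at 2.09 to 8.26 CPM in the tumors. Slc1a5 and Prodh therefore separated tumors from both glands, while Slc1a4 and Aldh18a1 shared the high level of gland replicate 2. None of the 14 other genes of serine and one-carbon metabolism was called by edgeR, with 3 higher and 2 lower in tumors at an unadjusted p under 0.05. Of 15 other ATF4 targets, edgeR called Cebpb, a partner of ATF4, at 76.6 and 77.6 CPM in the glands and 95.8 to 164 CPM in the tumors, without overlap (log2 fold change 0.72, SE 0.15, adjusted p = 0.0146). Of 21 genes of the XBP1 and ATF6 branches of the unfolded protein response, edgeR called Sec61b, a subunit of the channel that takes proteins into the endoplasmic reticulum, at 27.2 and 105 CPM in the glands and 22.1 to 33.1 CPM in the tumors (log2 fold change -1.32, SE 0.32, adjusted p = 0.0289). Of 8 genes of the mitochondrial stress list, it called Clpx, part of a mitochondrial protease, at 53.7 and 130 CPM in the glands and 36.5 to 54.7 CPM in the tumors (log2 fold change -0.96, SE 0.23, adjusted p = 0.0264). For Sec61b and Clpx, gland replicate 1 lay inside the range of the tumors. No gene of the eIF2 list (14 genes) or of the aminoacyl-tRNA synthetases (20 genes) was called by edgeR.

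The second comparison asked what STV did in primary tumors. No gene of the whole table was called by edgeR (0%), and 3.76% passed an unadjusted p under 0.05, while DESeq2 called 18 genes, none of them among the 10. The gene-wise changes of 9 of the 10 genes were below 0, with a median log2 fold change of -0.32 against -0.030 over all genes. Of the 10 genes, 2 passed an unadjusted p under 0.05, and the same 2 had groups that did not overlap, which held for 10.8% of all genes. These were Trib3 and Pycr1.

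Trib3 (chromosome 2, 152337425 to 152344060) was at 55.7, 106 and 80.2 CPM in untreated primary tumors and at 46.8, 43.3 and 52.0 CPM with STV. Every STV tumor lay below every untreated tumor. The log2 fold change was -0.78 (SE 0.35, unadjusted p = 0.0484, adjusted p = 1.00 by edgeR), and it ran from -0.99 to -0.51 when each library was left out in turn. Pycr1 (chromosome 11, 120638998 to 120643748) encodes the mitochondrial enzyme of the last step of proline synthesis. It was at 17.5, 25.5 and 29.1 CPM in untreated and at 14.1, 17.2 and 16.0 CPM in STV primary tumors. The gap between the groups was narrow, from 17.2 to 17.5 CPM, and the log2 fold change was -0.62 (SE 0.26, unadjusted p = 0.0397, adjusted p = 1.00 by edgeR).

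For the other 8 genes the untreated and STV primary tumors overlapped. Phgdh (chromosome 3, 98313171 to 98339969), the first enzyme of serine synthesis, was at 27.7, 42.6 and 24.3 CPM in untreated tumors and at 27.1, 17.5 and 23.7 CPM with STV (log2 fold change -0.49, SE 0.29, adjusted p = 1.00 by edgeR). Atf4 (chromosome 15, 80255184 to 80257545) was at 90.5, 124 and 79.0 CPM against 105, 66.3 and 71.6 CPM (log2 fold change -0.28, SE 0.27). Psat1 (chromosome 19, 15905123 to 15925059), which follows Phgdh in serine synthesis, was at 33.1, 24.2 and 22.6 CPM against 25.6, 23.0 and 34.1 CPM. Its log2 fold change was 0.037 (SE 0.35), the only one above 0. Neither Atf4 nor the serine enzymes thus differed beyond the spread between tumors.

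**Figure D2:**
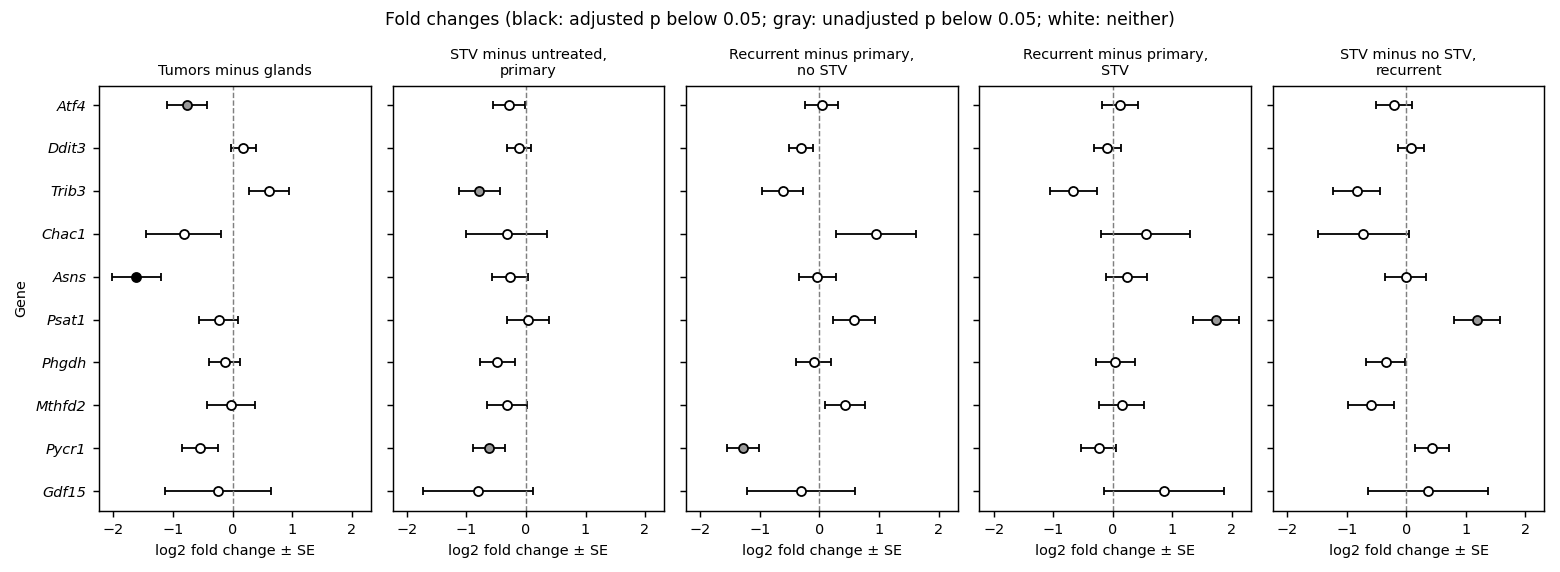
log2 fold change ± SE of each gene (edgeR) in 5 comparisons, with black points for an adjusted p below 0.05, gray for an unadjusted p below 0.05 and white for neither. Asns in tumors against glands is the only black point. The gray points are Atf4 in tumors against glands, Trib3 and Pycr1 with STV in primary tumors, Pycr1 in recurrent against primary tumors without STV, and Psat1 both in recurrent against primary tumors with STV and with STV within recurrent tumors.

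The third comparison set recurrent against primary tumors, apart for mice without and with STV. Without STV, Pycr1 was at 7.99, 8.20 and 13.7 CPM in recurrent and at 17.5, 25.5 and 29.1 CPM in primary tumors. All 3 recurrent tumors lay below all 3 primary tumors. The log2 fold change was -1.29 (SE 0.26, 2.44-fold lower), and by unadjusted p (0.000755) Pycr1 ranked 6 among 16870 genes. It was not called, since the adjusted p was 0.509 by edgeR. DESeq2 gave an adjusted p of 0.0107, and over all alternatives the adjusted p ran from 0.0107 to 0.841. Leaving out each library in turn gave log2 fold changes of -1.59 to -1.13, and the value was -1.13 without the fibroblast-rich recurrent DMAG replicate 1.

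In this comparison edgeR called no gene (0%), with 9.69% at an unadjusted p under 0.05 and 15.1% without overlap, and DESeq2 called 66 genes. Of the 10 genes, Pycr1 alone passed the unadjusted threshold and alone had groups that did not overlap. Psat1 was at 56.3, 31.0 and 32.9 CPM in recurrent DMAG tumors (log2 fold change 0.58, SE 0.35, adjusted p = 0.549 by edgeR), and without recurrent DMAG replicate 1 the log2 fold change was 0.27. Chac1 (chromosome 2, 119351242 to 119354326), which degrades glutathione, was at 5.46, 0.871 and 1.47 CPM in recurrent and at 1.97, 1.32 and 0.722 CPM in primary tumors. Only the fibroblast-rich recurrent DMAG replicate 1 was high, with 236 counts, and without it the log2 fold change turned from 0.94 to -0.19. Asns, Atf4 and Phgdh had log2 fold changes of -0.032, 0.035 and -0.095, with SEs of 0.30, 0.27 and 0.29.

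With STV, Psat1 was at 53.1 and 129 CPM in the 2 recurrent tumors and at 25.6, 23.0 and 34.1 CPM in the 3 primary tumors. Both recurrent tumors lay above all primary tumors, and recurrent DMAG+STV replicate 2 was the highest of the series. The log2 fold change was 1.73 (SE 0.38, 3.31-fold higher, unadjusted p = 0.00135), with an adjusted p of 0.292 by edgeR and 0.00624 by DESeq2. The size depended on that library. The log2 fold change was 0.94 (adjusted p = 1.00) without recurrent DMAG+STV replicate 2, and 2.21 (adjusted p = 0.0389) without recurrent DMAG+STV replicate 1. In each of these fits a lone recurrent tumor is assumed to vary like the other groups, and over all alternatives the adjusted p ran from 0.00624 to 1.00. The fibroblast sums of the recurrent DMAG+STV tumors (1438 and 1909 CPM) were above those of all primary tumors, as were those of 2 of the 3 recurrent DMAG tumors, and the proliferation marker sum was 470 and 235 CPM against 606 to 1005 CPM in the other tumors. Their part in the level of Psat1 was not tested.

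Trib3 was the other of 2 genes without overlap in this comparison, in which 35.3% of all genes did not overlap. It was at 42.6 and 17.1 CPM in recurrent DMAG+STV tumors and at 46.8, 43.3 and 52.0 CPM in primary STV tumors (log2 fold change -0.66, SE 0.39, adjusted p = 0.567 by edgeR). Recurrent DMAG+STV replicate 1 lay just under the lowest primary tumor, and without recurrent DMAG+STV replicate 2 the log2 fold change was -0.16. Psat1 alone of the 10 genes passed an unadjusted p under 0.05, which 10.1% of all genes did. edgeR called no gene (0%) and DESeq2 called 327. Pycr1, at 11.6 and 15.1 CPM in recurrent and 14.1 to 17.2 CPM in primary STV tumors, overlapped (log2 fold change -0.24, SE 0.29).

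Averaged over STV, the 2 genes of smallest p among the 10, Psat1 of serine synthesis and Pycr1 of proline synthesis, lay on opposite sides of 0. Psat1 was at 31.0 to 129 CPM in the 5 recurrent tumors and at 22.6 to 34.1 CPM in the 6 primary tumors (log2 fold change 1.15, SE 0.26, unadjusted p = 0.00149, adjusted p = 0.287 by edgeR and 0.00665 by DESeq2). Pycr1 was at 7.99 to 15.1 CPM in recurrent and at 14.1 to 29.1 CPM in primary tumors (log2 fold change -0.76, SE 0.20, unadjusted p = 0.00358, adjusted p = 0.287 by edgeR and 0.0240 by DESeq2). Each gene overlapped between the groups by itself. Without recurrent DMAG+STV replicate 2, the log2 fold change was 0.77 for Psat1 and -0.86 for Pycr1. Trib3 had a log2 fold change of -0.64 (SE 0.26, unadjusted p = 0.0359, adjusted p = 0.342 by edgeR), and without recurrent DMAG+STV replicate 2 it was -0.37. These 3 of the 10 genes passed an unadjusted p under 0.05, against 13.6% of all genes. None of the 10 had groups that did not overlap, against 1.34%, and edgeR called no gene (0%), while DESeq2 called 416, among them Psat1 and Pycr1.

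The ratio of Psat1 to Pycr1 in CPM was 0.776 to 2.13 in the 6 primary tumors and 2.41 to 8.50 in the 5 recurrent tumors. The groups did not overlap in this ratio, and it was the only one of the 45 pairs among the 10 genes for which this held. The share of all gene pairs that separate these groups was not computed, and 1.34% of single genes did so. The pair was chosen after its values were seen and was not tested. The lowest recurrent value was that of recurrent DMAG replicate 3, and the highest primary value that of primary STV replicate 3. The glands had ratios of 2.82 and 1.89, across the divide between the tumor groups. By contrast, the ratio of Psat1 to Phgdh, the enzyme just before it, was 0.567 to 1.44 in primary tumors and 1.25 to 5.78 in recurrent tumors, with overlap. Phgdh itself was at 27.1 ± 8.40 CPM (SD, n = 6) in primary and at 27.3 ± 8.35 CPM (SD, n = 5) in recurrent tumors.

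**Figure D3:**
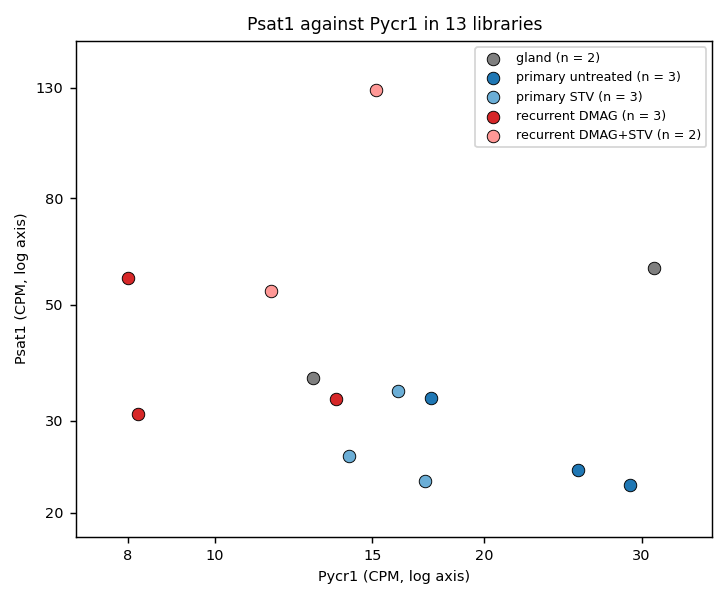
Psat1 against Pycr1 in CPM (both axes log) in the 13 libraries, colored by group. The 5 recurrent tumors have ratios of Psat1 to Pycr1 of 2.41 to 8.50, and the 6 primary tumors have ratios of 0.776 to 2.13. Each gene by itself overlaps between recurrent and primary tumors.

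STV was also compared within recurrent tumors. Psat1 was the only one of the 10 genes at an unadjusted p under 0.05, which 7.84% of all genes passed, and no gene was called by edgeR (0%), while DESeq2 called 270 genes, none of them among the 10. Its log2 fold change was 1.19 (SE 0.38, unadjusted p = 0.0121, adjusted p = 0.474 by edgeR), and without recurrent DMAG+STV replicate 2 it was 0.40. Recurrent DMAG+STV replicate 1, at 53.1 CPM, lay below recurrent DMAG replicate 1, at 56.3 CPM, so the groups overlapped. Trib3 was at 44.3, 71.2 and 44.6 CPM without and at 42.6 and 17.1 CPM with STV, without overlap, which held for 21.5% of all genes (log2 fold change -0.83, SE 0.39, adjusted p = 0.668 by edgeR). Without recurrent DMAG+STV replicate 2 this log2 fold change was -0.33, and without recurrent DMAG+STV replicate 1 it was -1.64. Trib3 was below the untreated level with STV in primary tumors too. The difference between these 2 changes was -0.046 (SE 0.52, adjusted p = 0.994 by edgeR). It ran from -0.89 to 0.43 when each library was left out in turn.

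The interaction term tested whether the change with STV differed between recurrent and primary tumors. Pycr1 was the only one of the 10 genes at an unadjusted p under 0.05, against 7.84% of all genes. Its change with STV was -0.62 in primary and 0.43 in recurrent tumors, and these differed by 1.05 (SE 0.39, unadjusted p = 0.0232, adjusted p = 0.586 by edgeR). For Psat1 the changes of 0.037 and 1.19 differed by 1.15 (SE 0.52, unadjusted p = 0.0527, adjusted p = 0.637 by edgeR). No difference of this kind was called by edgeR (0%), and DESeq2 called 185 genes, none of them among the 10.

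Ddit3, Mthfd2, Gdf15 and, among tumors, Asns remain to be given by group. Ddit3 (chromosome 10, 127290793 to 127296291), which encodes the death-promoting factor CHOP, was at 6.40 to 10.2 CPM in the 11 tumors and at 7.82 and 5.92 CPM in the glands. Its log2 fold changes between groups lay between -0.30 and 0.18, with SEs of 0.15 to 0.23. Ddit3 overlaps Mars, on the opposite strand, over 68 bases. Whether the counting used strand is not given in the sources used here. Mars, the methionyl-tRNA synthetase, was at 31.1 to 48.3 CPM in the tumors. Mthfd2 (chromosome 6, 83305704 to 83326011), an enzyme of the mitochondrial folate pathway, was at 2.37 to 6.41 CPM in the tumors, with log2 fold changes between -0.59 and 0.42. Gdf15 (chromosome 8, 70629393 to 70632470), a secreted stress hormone, was at 0.0460 to 0.645 CPM in the tumors, and the SE of its log2 fold change among tumor groups was 0.91 to 1.01 in single contrasts. Differences in Gdf15 of this size could not be resolved with these tumors. Asns was at 23.9, 35.3 and 25.3 CPM in untreated primary, 28.2, 21.5 and 20.8 CPM in STV primary, 42.9, 19.9 and 20.7 CPM in recurrent DMAG and 29.3 and 25.7 CPM in recurrent DMAG+STV tumors, so that its groups overlapped in every comparison among tumors.

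The tumors differed in how many of the 10 genes were high. Recurrent DMAG replicate 1 had the highest level of Atf4 (140 CPM), Chac1, Asns and Mthfd2, and was among the 3 highest tumors for 7 genes, yet had the lowest Pycr1. This is the library with 5755 CPM for the fibroblast markers, and their part in these levels was not tested. Primary untreated replicate 2 had the highest Ddit3, Trib3 and Phgdh and was among the 3 highest for 6 genes. Primary STV replicate 2 was among the 3 lowest for 7 genes. The mean standardized level over the 10 genes was 0.94 SD in recurrent DMAG replicate 1, 0.80 SD in primary untreated replicate 2 and -0.62 SD in primary STV replicate 2, and lay between -0.45 and 0.22 SD in the other tumors.

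**Figure D4:**
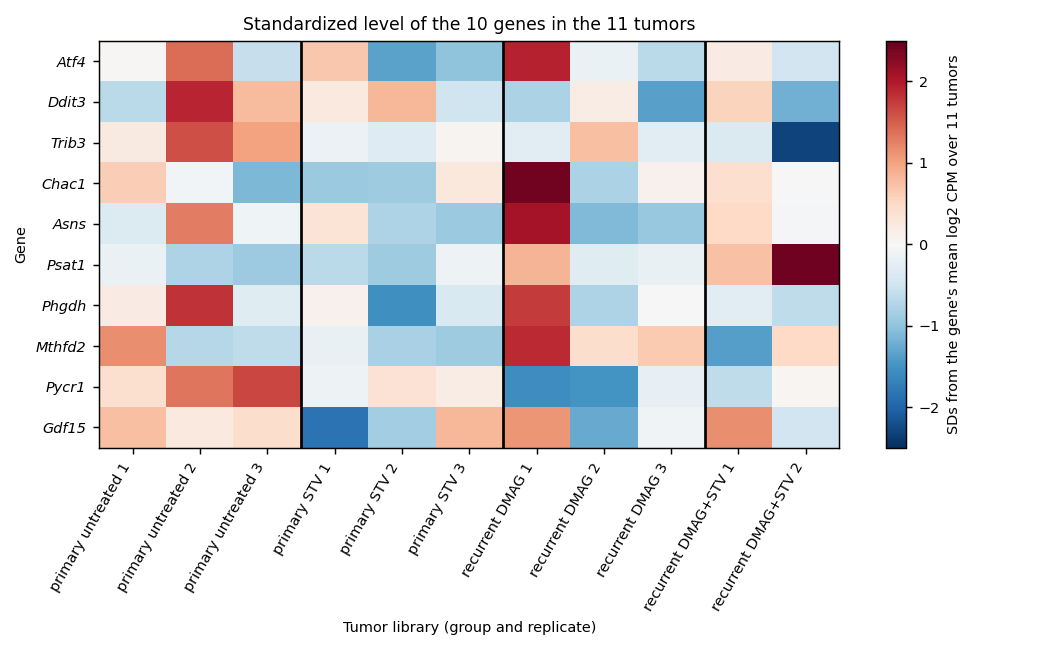
Level of each gene (rows) in each of the 11 tumors (columns, by group and replicate), as SDs from the gene's mean log2 CPM over tumors. Recurrent DMAG replicate 1 is among the 3 highest tumors for 7 genes and primary untreated replicate 2 for 6. Atf4, Asns and Phgdh are common to both sets, and the 2 tumors part in other genes. Ddit3 and Trib3 are highest in primary untreated replicate 2 only, and Pycr1 is lowest in recurrent DMAG replicate 1. Recurrent DMAG+STV replicate 2 combines the highest Psat1 with the lowest Trib3.

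Across the 11 tumors, Atf4 was compared with each of the other 9 genes on the log2 CPM scale. Asns correlated with Atf4 with Pearson's r = 0.897 (permutation p = 0.0004, adjusted over 9 relations 0.00198) and Spearman's rho = 0.773 (permutation p = 0.00742, adjusted 0.0380). Phgdh did so with r = 0.894 (permutation p = 0.00044, adjusted 0.00198) and rho = 0.764 (permutation p = 0.00844, adjusted 0.0380). Without the 2 tumors farthest from the median of Atf4, recurrent DMAG replicate 1 and primary untreated replicate 2, r was 0.659 for Asns and 0.654 for Phgdh over 9 tumors. Asns and Phgdh also followed each other (r = 0.820). The share of all genes that follow Atf4 this closely was not computed, so these values do not set the 2 genes apart from other genes. The other 7 relations had adjusted permutation p-values of at least 0.211 for r. Chac1 had r = 0.566, which was 0.0722 without those 2 tumors, and Pycr1 had r = -0.259. Psat1, which follows Phgdh in the same pathway, had r = 0.107 with Atf4 and 0.013 with Phgdh. The pair farthest below 0 was Trib3 and Psat1, with r = -0.815, given as a description and chosen after the values of the 45 pairs were seen. All points share their library with both genes. With the mean of each of the 4 tumor groups removed, r was 0.922 for Asns (exact permutation within groups, p = 0.0185, adjusted over 9 relations 0.0833) and 0.896 for Phgdh (exact permutation p = 0.0116, adjusted 0.0833), so that neither relation passed the threshold after adjustment within groups. The other 7 relations had adjusted p-values of at least 0.630 in the same test.

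**Figure D5:**
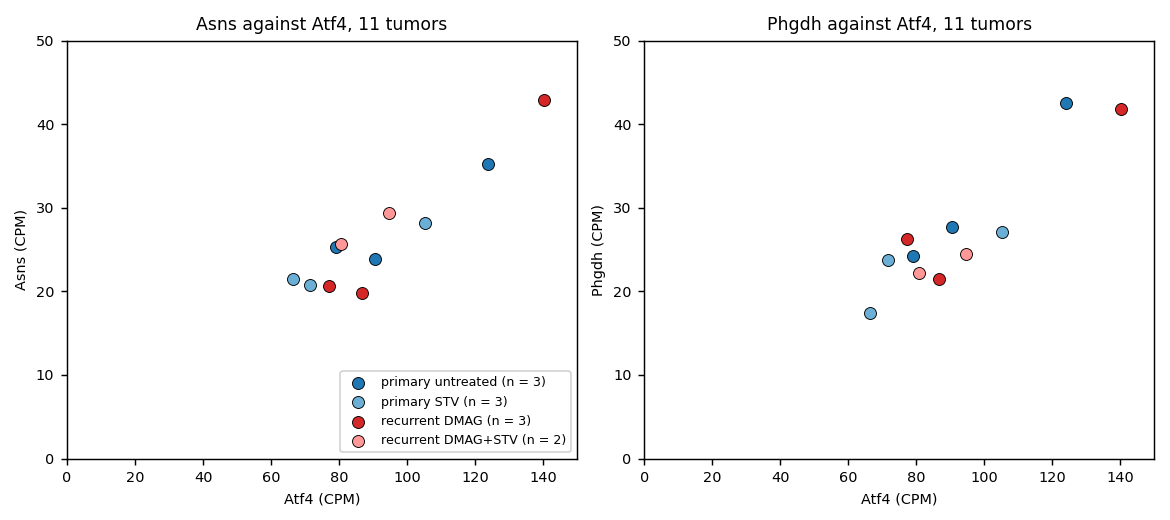
Asns (left) and Phgdh (right) against Atf4 in CPM in the 11 tumors, colored by group. Both are higher where Atf4 is higher (r of 0.897 and 0.894 on the log2 scale), and the points at the right are recurrent DMAG replicate 1 (140 CPM of Atf4) and primary untreated replicate 2 (124 CPM).

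The 5 genes whose pattern over the 11 tumors was most like the mean standardized level of the 10 genes, among 12684 genes compared, were Pfkfb3 (r = 0.951), Idh2 (r = 0.951), Mrps2 (r = 0.934), Fnip2 (r = 0.928) and E4f1 (r = 0.926). Pfkfb3 promotes glycolysis and Idh2 is a mitochondrial isocitrate dehydrogenase. The highest level in a tumor was 84.1 CPM for Pfkfb3 and 76.5 CPM for Idh2. Without recurrent DMAG replicate 1 the 5 values of r were 0.896 to 0.929.

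Further genes of the pathway were counted by list for recurrent against primary tumors, averaged over STV. None was called by edgeR. DESeq2 called 4, all higher in recurrent tumors (Atf5, Ddit4, Slc7a11 and Aldh1l2), among 416 genes that it called in all. Of 15 other ATF4 targets, 13 had a log2 fold change above 0, with 6 above and 1 below 0 at an unadjusted p under 0.05, and the median was 0.38 against 0.0018 over all genes. At that threshold, 13.6% of all genes passed. In the same comparison, marker lists of other cell types had mostly positive log2 fold changes, none of them called, with 8 of 8 macrophage markers above 0 (7 at an unadjusted p under 0.05, median 0.73), 8 of 8 fibroblast markers (5, median 1.64), 8 of 8 basal and myoepithelial markers (3, median 0.85) and 5 of 6 neutrophil markers (4, median 1.90). The summed macrophage level was 211 to 628 CPM in the recurrent and 170 to 224 CPM in the primary tumors. Their part in the values of the ATF4 targets was not tested. The genes of smallest p were Atf5, a relative of ATF4 (log2 fold change 0.71, SE 0.19, adjusted p = 0.287), and Ddit4, an inhibitor of mTORC1 signaling (1.49, SE 0.40, adjusted p = 0.287). Atf5 was at 58.5, 35.0 and 26.6 CPM in recurrent DMAG tumors and at 61.1 and 52.5 CPM in recurrent DMAG+STV tumors. Its level in primary tumors was 25.8 to 34.6 CPM. Ddit4 was high in recurrent DMAG replicate 1 (63.6 CPM) and recurrent DMAG+STV replicate 2 (56.0 CPM), the libraries with the highest fibroblast sum and the lowest luminal sum, and was at 13.4 to 27.0 CPM in the other recurrent tumors and at 9.40 to 17.5 CPM in primary tumors. All 10 amino acid transporters, 1 of them at an unadjusted p under 0.05, had a log2 fold change above 0, with a median of 0.31. Slc7a11, the cystine importer, was at 4.63 to 12.2 CPM in recurrent and at 1.59 to 5.52 CPM in primary tumors (log2 fold change 1.34, SE 0.38, adjusted p = 0.289).

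Beside Psat1, the gene of serine and one-carbon metabolism with the smallest p was Aldh1l2, the mitochondrial formyltetrahydrofolate dehydrogenase. It was at 30.1, 29.1 and 23.0 CPM in recurrent DMAG and at 31.4 and 21.4 CPM in recurrent DMAG+STV tumors, against 7.01 to 16.1 CPM in the 6 primary tumors, without overlap. Its log2 fold change was 1.26 (SE 0.24, unadjusted p = 0.00045, adjusted p = 0.287 by edgeR). Of the 14 genes of this list, 4 had a value above 0 and 10 below, with a median of -0.11. Beside Pycr1, the 7 other genes of proline metabolism had a median of -0.21, and Pycrl, a cytosolic relative of Pycr1, had the smallest p (log2 fold change -0.31, SE 0.11, adjusted p = 0.313). In the other branches of the unfolded protein response, 20 of 21 genes were below 0, 7 of which passed the unadjusted threshold, and the median was -0.33. Atf6 was at 66.7 to 85.9 CPM in recurrent and at 87.7 to 123 CPM in primary tumors, without overlap (log2 fold change -0.39, SE 0.11, adjusted p = 0.287). In the comparisons of STV within primary and within recurrent tumors and in the interaction, no gene of these lists was called by edgeR or DESeq2.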

How the data were processed

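Total RNA from frozen tissue was depleted of ribosomal RNA and sequenced from stranded libraries. According to the study's methods and the submitters' processing notes, the authors demultiplexed the reads with bcl2fastq 2.20, aligned them to mm10 (GRCm38) with STAR and deposited the gene counts of featureCounts (Subread 1.6.2). The strand setting and the handling of reads with several positions are not given in the sources used here. From these counts, CPM and tests were computed with edgeR 4.0.16 in R 4.3.3 (filterByExpr, TMM factors, robust quasi-likelihood test, Benjamini-Hochberg adjustment over all genes, threshold 0.05). Tumors against glands were fitted on 13 libraries (17135 genes), the other comparisons on 11 tumors (16870 genes). DESeq2 1.42.0, limma 3.58.1 (voom) and other alternatives were run as listed in the closing section. log2 CPM used a prior count of 2. Levels per kilobase used exon lengths of GENCODE M21. Correlations used 1e+05 permutations and 2-sided p-values. Correlations with group means removed, added after seeing the data, used all 432 permutations within groups. The tests were checked on simulated counts with large known changes in genes of high counts and less spread than these libraries. That check does not show how small a change these libraries could resolve.

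The 10 genes and all lists were chosen with earlier results of these data known. Besides the 10 genes, the text names from each pathway list the called genes (at most 4), or else at most 2 genes of smallest unadjusted p, and the 5 genes most like the mean of the 10. Ratios of gene pairs and the pair of lowest r were chosen after their values were seen. Counts of 3 or fewer are near the floor, which was 0.0587 to 0.107 CPM per library. SEs of edgeR are the size of the log2 fold change divided by the square root of the F statistic of its test. Group labels alone defined the replicates, and p-values measure the spread between these tumors. Replicate numbers were not used to pair the samples in the main tests.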

Additional observations from a re-analysis of the deposited data

Results flagged for a closer look

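Among 20 checks for a library far from the others (10 genes in the 6 primary and in the 5 recurrent tumors), 1 was met: Mthfd2 in primary untreated replicate 1. It stood at 5.18 CPM, against 2.74 to 3.41 CPM in the other 5 primary tumors, and the gap took 0.659 of the whole range. Chance gives about 1 such case in 20.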

How the results depend on the processing

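DESeq2 called more genes than edgeR, namely 3238 against 1785 for tumors against glands and, where edgeR called 0, 18 with STV in primary tumors, 66 for recurrence without STV, 327 for recurrence with STV, 270 with STV in recurrent tumors, 416 for recurrence averaged over STV and 185 for the interaction. Of the 10 genes, DESeq2 called 1 for tumors against glands (Asns, adjusted p = 0.00837), 1 for recurrence without STV (Pycr1), 1 with STV (Psat1) and 2 on average. For tumors against glands, limma voom called 0 of the 10 genes (Asns adjusted p = 0.156), and so did the replicate block (371 genes in all, Asns adjusted p = 0.142). The replicate block used the sample numbers, which the labels do not tie to animals or batches. The correlation of deviations was -0.295 to 0.222 for 15 pairs with the same number and -0.366 to 0.369 for 30 pairs with different numbers. Within groups this small, deviations from the group mean are tied to each other. The check therefore cannot show whether the numbers pair the samples. The block called none of the 10 genes in the other comparisons. With recurrence and STV fitted on the 2 groups alone, edgeR called 2 genes, neither among the 10. Size factors of the RLE method, no filter on low counts, and removal of milk, muscle and adipocyte genes kept the count of the 10 genes called in every comparison. Voom reversed Mthfd2 in tumors against glands (0.015), Asns with STV in recurrent tumors (0.094) and Chac1 in the interaction (0.0079). The replicate block reversed Mthfd2 in tumors against glands (0.15), Atf4 for recurrence without STV (-0.0089), with STV (-0.0058) and averaged (-0.0074), and Phgdh for recurrence with STV (-0.024).

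Leaving out each library in turn gave 535 (without gland replicate 2) to 4255 (without gland replicate 1) genes called for tumors against glands and 0 to 3 of the 10, and 0 to 1 gene called for recurrence without STV, 0 to 100 genes and 0 to 1 of the 10 for recurrence with STV, 0 to 141 for STV in recurrent tumors, 0 to 6 for recurrence averaged and 0 to 77 for the interaction. Of the 70 log2 fold changes of the 10 genes, 38 took the other sign in at least 1 of these fits, with the ranges that follow. For tumors against glands these were Atf4 (-1.32 to 0.32), Chac1 (-1.40 to 0.31), Asns (-2.33 to 0.11), Psat1 (-0.50 to 0.24), Phgdh (-0.22 to 0.019), Mthfd2 (-0.52 to 1.02), Pycr1 (-1.01 to 0.30) and Gdf15 (-0.91 to 1.11). For STV in primary tumors these were Ddit3 (-0.25 to 0.034), Chac1 (-0.72 to 0.058), Psat1 (-0.14 to 0.22) and Mthfd2 (-0.45 to 0.012). For recurrence without STV these were Atf4 (-0.25 to 0.26), Chac1 (-0.19 to 1.38), Asns (-0.47 to 0.20), Phgdh (-0.39 to 0.20) and Gdf15 (-1.19 to 0.16). For recurrence with STV these were Atf4 (-0.021 to 0.35), Ddit3 (-0.30 to 0.067), Phgdh (-0.13 to 0.19), Mthfd2 (-0.34 to 0.49) and Gdf15 (-0.32 to 2.19). For STV in recurrent tumors these were Atf4 (-0.36 to 0.098), Ddit3 (-0.13 to 0.24), Chac1 (-1.15 to 0.42), Asns (-0.22 to 0.44) and Gdf15 (-0.81 to 1.26). For recurrence averaged over STV these were Atf4 (-0.071 to 0.21), Asns (-0.12 to 0.21), Phgdh (-0.18 to 0.11) and Gdf15 (-0.30 to 0.94). For the interaction these were Atf4 (-0.16 to 0.35), Ddit3 (-0.028 to 0.34), Trib3 (-0.89 to 0.43), Chac1 (-0.85 to 0.73), Phgdh (-0.18 to 0.43), Mthfd2 (-0.79 to 0.046) and Gdf15 (-0.034 to 2.49). The correlation with Atf4 took the other sign for Ddit3 (-0.161 to 0.469), Psat1 (-0.0988 to 0.404), Mthfd2 (-0.0252 to 0.57), Pycr1 (-0.585 to 0.106) and Gdf15 (-0.0415 to 0.445). Removing the group means, a setting chosen after seeing the data, gave r = 0.922 for Asns and 0.896 for Phgdh, which lost the threshold (adjusted p = 0.0833 by exact permutation for both), and kept the sign of the other 7. The cause of these shifts was not tested. Gdf15 and Chac1 had 2 to 236 counts, which limits their precision, and groups of 2 or 3 tumors limit that of all 10 genes.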

Other observations

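The kinases, eIF2, eIF2B and phosphatase subunits that switch the response on and off showed no called gene in any comparison by edgeR, and DESeq2 called 2, Eif2b3 and Eif2b4, lower in tumors than in glands. Of these 14 genes, 4 were higher and 10 lower in tumors than in glands (3 lower at an unadjusted p under 0.05), and 9 were higher and 5 lower in recurrent than in primary tumors averaged over STV, with a median log2 fold change of 0.064 against 0.0018 over all genes. Of 20 cytosolic aminoacyl-tRNA synthetases, none was called by edgeR in any comparison and 2 by DESeq2, Mars and Aars, lower in tumors than in glands. Of the 20, 15 were lower in tumors than in glands (8 at an unadjusted p under 0.05), and 15 were higher in recurrent than in primary tumors (none at an unadjusted p under 0.05). Of 8 mitochondrial chaperones and proteases, 1 was called, Clpx, lower in tumors than in glands (log2 fold change -0.96, SE 0.23, adjusted p = 0.0264), at 130 CPM in gland replicate 2 and 53.7 CPM in gland replicate 1, a level that lay within the range of the tumors, 36.5 to 54.7 CPM.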
